A study of Mus musculus with 3 samples.

Results

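Glucocorticoids and thyroid hormone reach cultured tissue with fetal bovine serum, and 8 mouse genes known to respond to them were followed in embryonic kidneys grown with and without serum. The genes are Klf9, Tsc22d3, Fkbp5, Per1, Sgk1, Zbtb16, Mt1 and Mt2. They were picked by name as a readout of hormones lost with serum, and each was represented by the probe set annotated to it alone. All 8 of 8 had such a probe set, out of 19938 genes in all. No glucocorticoid or thyroid hormone was measured or added back in this study, so no difference can be assigned to any single hormone of the serum.

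The explants were kidneys of C57BL/6 embryos at embryonic day 11.5, kept on Transwell filters for 48 h in 1 of 3 media: serum-free DMEM with retinoic acid, serum-free DMEM alone, or DMEM with 10% fetal bovine serum. RNA of each medium was put on 1 Affymetrix Mouse Gene 1.0 ST array. Since each medium has a single array, no error could be estimated and no test was made, and every difference below describes these 3 arrays. The dose of retinoic acid, the number of embryos per array and their sex are not stated in the labels. Values are log2 probe set intensities, and they are set against each other only within a gene, across media. The size rule for a gene was a difference of at least 2-fold in which the larger value reached a floor of 7.12, the median of all gene values.

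Steroid and thyroid hormones act through nuclear receptors, proteins that bind DNA and turn genes on or off when the hormone enters the cell. The glucocorticoid receptor waits in the cytoplasm in a complex with heat shock protein chaperones, whereas thyroid hormone receptors sit on DNA together with retinoid X receptors, the same partners that retinoic acid receptors use. Klf9 encodes a zinc finger repressor induced by glucocorticoids and by thyroid hormone. Tsc22d3 encodes GILZ, an anti-inflammatory leucine zipper protein, and Fkbp5 a co-chaperone that damps the glucocorticoid receptor. Per1 encodes a circadian clock repressor, Sgk1 a kinase that raises epithelial sodium transport, and Zbtb16 the transcriptional repressor PLZF. Mt1 and Mt2 encode metallothioneins, small cysteine-rich proteins that bind zinc and copper, and both are induced by metals as well as by glucocorticoids.

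The DNA just upstream of the genes is shown first, with matches to short motifs of inputs that such genes are known for. The sequences are RefSeq's for mouse build GRCm38.p6, and 7 of the 8 genes have entries, with 15 windows of 250 bases between them. Mt1 (chr8:94178839-94179088, plus strand) and Mt2 (chr8:94172368-94172617, plus strand) are neighbours whose starts lie 6471 bases apart. Capitals mark the core of the metal response element, TGCACNC or TGCGCNC on either strand, which the zinc sensor MTF1 binds.
Mt1: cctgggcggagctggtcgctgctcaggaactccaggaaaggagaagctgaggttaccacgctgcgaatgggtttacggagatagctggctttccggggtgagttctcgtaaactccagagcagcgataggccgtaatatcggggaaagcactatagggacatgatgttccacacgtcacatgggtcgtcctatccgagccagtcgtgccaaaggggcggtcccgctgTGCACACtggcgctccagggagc
Mt2: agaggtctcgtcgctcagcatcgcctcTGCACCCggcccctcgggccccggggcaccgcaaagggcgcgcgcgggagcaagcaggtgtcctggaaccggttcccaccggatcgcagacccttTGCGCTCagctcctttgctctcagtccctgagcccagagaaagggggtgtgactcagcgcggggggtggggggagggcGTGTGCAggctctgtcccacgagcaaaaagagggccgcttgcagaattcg

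Within these windows Mt2 held 3 matches and Mt1 held 1. Bases outside them, including those past the annotated start, were not searched, so the counts are not totals for the promoters. Of 32851 windows of the same length, 21.4% held at least 1 match and 1.26% held at least 3. A match is a run of letters and not a measured binding site.

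Sgk1 has 6 annotated starts. Upstream of one of them lies a full palindromic glucocorticoid response element, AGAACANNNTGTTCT, in capitals in the stretch chr10:21993679-21993738 (plus strand).
Sgk1: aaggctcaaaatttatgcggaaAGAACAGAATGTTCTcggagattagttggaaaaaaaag

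The element begins 189 bases before its own start and 965 bases before the next start. Only 3 of the 32851 windows held these letters (0.00913%), and among the 15 windows of the genes described here it was the only one. The half-site TGTTCT, which is part of that element, matched 16.1% of all windows on either strand. It was also found at 2 other Sgk1 starts and at 1 of 3 Tsc22d3 starts, but not in the Mt1 or Mt2 window. The half-site AGGTCA of thyroid and retinoid receptors (14.0% of all windows) was found at 2 Sgk1 starts and 1 Per1 start. The clock E-box CACGTG (6.02% of all windows) was found in 1 window each of Per1, Fkbp5 and Sgk1. The metal response element also matched at 1 Per1 start, and the cAMP response element TGACGTCA (1.55% of all windows) matched in 0 of the 15.

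Klf9, the gene with the largest differences below, has 1 window (chr19:23140976-23141225, plus strand), and it is shown entirely in lower case because none of the receptor motifs, the metal response element, the E-box or the cAMP response element occurs in these letters.
Klf9: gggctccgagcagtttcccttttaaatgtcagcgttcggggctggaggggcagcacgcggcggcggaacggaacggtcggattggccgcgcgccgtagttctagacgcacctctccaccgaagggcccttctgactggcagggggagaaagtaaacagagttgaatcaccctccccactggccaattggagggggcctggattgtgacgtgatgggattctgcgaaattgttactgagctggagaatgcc

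In mouse, hormone response elements of Klf9 have been described farther upstream, outside this window.

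The 8 genes did not move together when serum was left out. Klf9 was lower in serum-free medium and Mt1 was higher, each at least 2-fold, and Mt2 was higher by a smaller amount. The other 5, all textbook glucocorticoid targets, differed by no more than 0.26. Over the 8 genes 4 differences were above 0 and 4 below, with a median of 0.02, while the median over all 10156 genes at or above the floor was -0.00414. The 2 genes past 2-fold compare with 1.58% of all genes (0.876% higher and 0.699% lower).

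**Figure D1:**
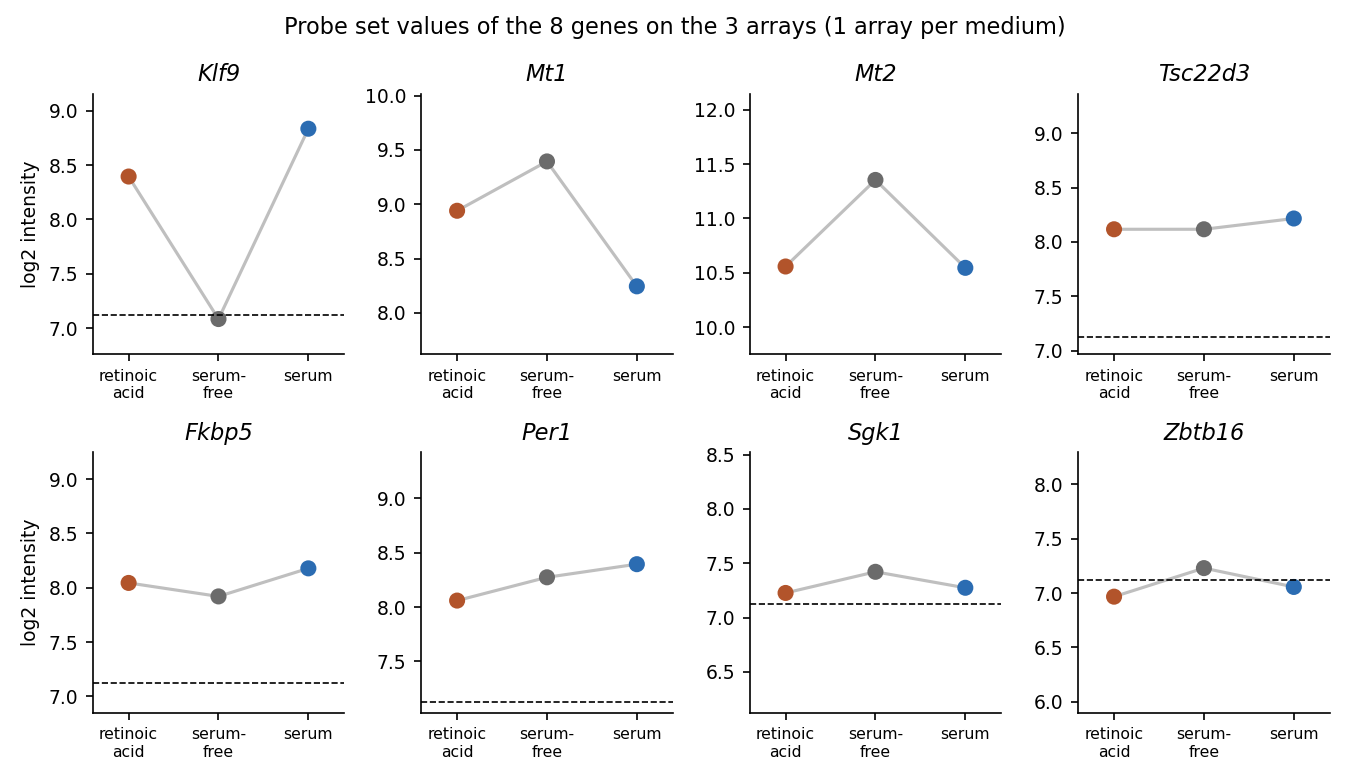
Log2 probe set intensity of each gene (y axis) on the retinoic acid, serum-free and serum arrays (x axis), 1 point per array; every panel spans the same number of log2 units and the dashed line is the floor of 7.12. Klf9 dips to 7.08 in serum-free medium, Mt1 and Mt2 peak there, and the other 5 panels are nearly flat.

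Klf9 had an intensity of 336.5 with retinoic acid, 135.6 in serum-free medium and 456.5 in serum. On the log2 scale these are 8.39, 7.08 and 8.83. Serum-free medium thus stood alone as the low array, and its value lay just under the floor, where background takes up more of the intensity. The difference was -1.75 for serum-free minus serum, or 3.37-fold, and 37 of 10156 genes differed by that much or more. Retinoic acid minus serum-free was 1.31, or 2.48-fold, a size matched or exceeded by 88 of 10111 genes. In that comparison Klf9 was the only one of the 8 genes past 2-fold, beside 1.66% of all genes (1.05% higher and 0.613% lower). Klf9 was 1 of 22 genes that were at least 2-fold lower without serum and at least 2-fold higher again with retinoic acid. Over all genes, 71 were lower in the first step and 106 were higher in the second. Both steps use the same serum-free array, so any error of that array enters both with opposite sign.

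With retinoic acid Klf9 still stood under its serum value, by a difference of -0.44. Across that comparison 0 of the 8 genes reached 2-fold in either direction, beside 1.86% of all genes (1.04% higher and 0.816% lower).

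**Figure D2:**
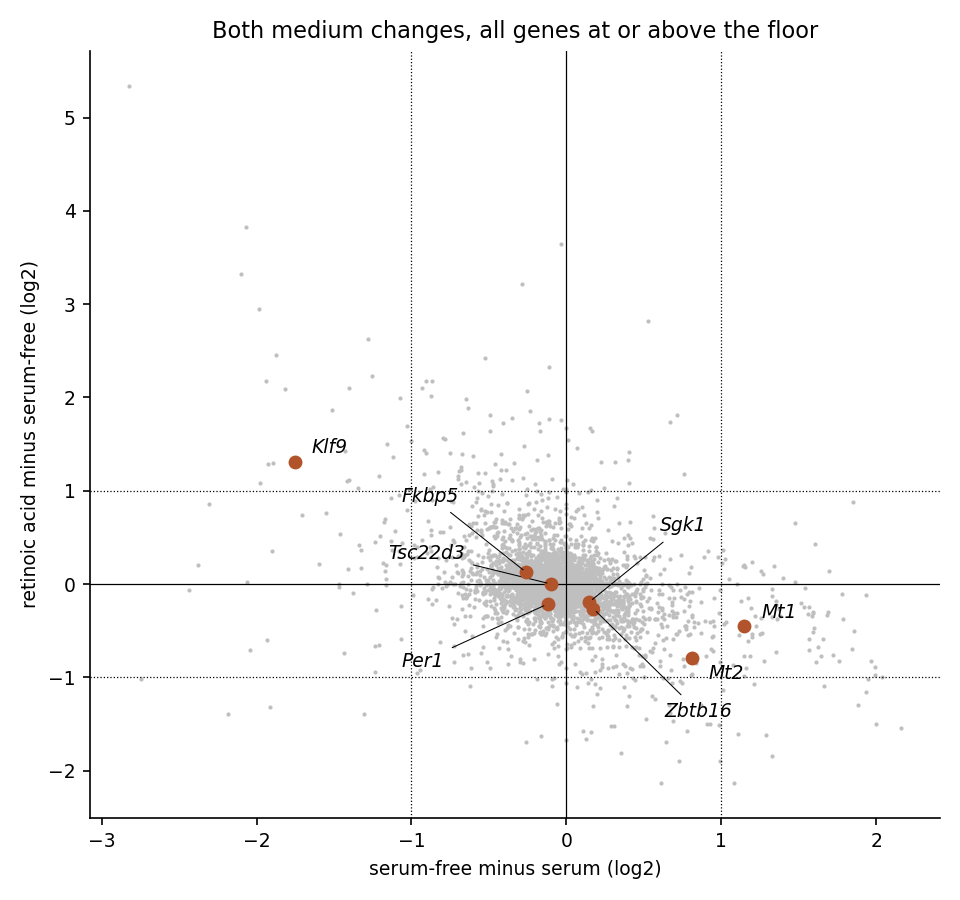
Each point is a gene at or above the floor on at least 1 array, with serum-free minus serum on the x axis and retinoic acid minus serum-free on the y axis (log2); dotted lines mark 2-fold and the 8 genes are in orange. Klf9 lies at -1.75 and 1.31, Mt1 at 1.15 and -0.45 and Mt2 at 0.81 and -0.80, while the other 5 lie within the dense centre. Both axes contain the serum-free array, with opposite sign.

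The metallothionein genes ran the other way. Mt1 had an intensity of 491.2 with retinoic acid, 672.9 in serum-free medium and 303.3 in serum (8.94, 9.39 and 8.24 on the log2 scale). Serum was its low array, and the retinoic acid value fell between the others. Serum-free minus serum was 1.15, or 2.22-fold, and 128 of 10156 genes differed by that much or more, 71 of them on the higher side. Retinoic acid minus serum-free was -0.45, and retinoic acid minus serum was 0.70.

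Mt2 had an intensity of 1507 with retinoic acid, 2618 in serum-free medium and 1494 in serum (10.56, 11.35 and 10.55 on the log2 scale). Here serum-free medium was the single high array, and the retinoic acid and serum arrays differed by only 0.01. Serum-free minus serum was 0.81, or 1.75-fold, and retinoic acid minus serum-free was -0.80, or 1.74-fold. Mt1 and Mt2 therefore shared the direction of both steps but not the level with retinoic acid: retinoic acid minus serum was 0.70 for Mt1 and 0.01 for Mt2. The coding sequences of these neighbouring genes are alike, and how far their probe sets share signal was not tested.

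The remaining 5 genes showed small differences. As a scale for these, different probe sets of the same gene disagreed by up to 0.28 in serum-free minus serum at the 95th percentile, and by up to 0.28 and 0.33 in retinoic acid minus serum-free and retinoic acid minus serum. Of the 8 genes, 3 exceeded this in the first comparison and 3 in the second, namely Klf9, Mt1 and Mt2 both times. In retinoic acid minus serum it was exceeded by Klf9, Mt1 and Per1, with Per1 only just past it at -0.335 against 0.325. Under the offset, cyclic loess and median centring settings given at the end, Per1 did not exceed it. Sizes near this scale were common over all genes. In the first and second comparisons, 14.5% and 12.6% of genes differed by at least 0.26. For retinoic acid minus serum 13.1% differed by at least 0.33. The scale comes from the same arrays and holds no error between arrays or cultures.

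Fkbp5 was at 8.04 with retinoic acid, 7.92 in serum-free medium and 8.18 in serum. Its order of arrays was that of Klf9, lowest in serum-free medium, but serum-free minus serum was only -0.26, a size that 14.5% of genes matched or exceeded. Tsc22d3 was at 8.12 with retinoic acid, 8.12 in serum-free medium and 8.22 in serum. The first pair is an exact tie, which the authors' summary of probes returned for 35.4% of genes at or above the floor and which is no measure of equal expression. Genes below that are given a single value for every array are such ties throughout, and ties also enter the list medians of 0.

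Per1 was at 8.06 with retinoic acid, 8.27 in serum-free medium and 8.39 in serum. Retinoic acid was its low array. Retinoic acid minus serum was -0.33, matched or exceeded in size by 13.1% of genes.

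Sgk1, whose upstream stretch holds the palindromic element shown above, was at 7.23 with retinoic acid, 7.42 in serum-free medium and 7.27 in serum. Serum-free minus serum was 0.15, on the higher side. Zbtb16 was at 6.97 with retinoic acid, 7.23 in serum-free medium and 7.06 in serum, and only the serum-free value reached the floor. The floor is the median of all gene values and not a limit of detection.

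The receptors and enzymes that would carry these hormone signals were then read on the same arrays. Nr3c1, the glucocorticoid receptor gene, was above the floor throughout, at 7.99 with retinoic acid, 8.19 in serum-free medium and 8.10 in serum. The mineralocorticoid receptor gene Nr3c2 stayed under the floor, between 4.75 and 4.92. Hsd11b1, whose enzyme regenerates active glucocorticoid, was under the floor at 4.28 to 4.31. Hsd11b2, whose enzyme inactivates it, was well above at 10.43 with retinoic acid, 10.82 in serum-free medium and 10.87 in serum.

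Of the 11 measured genes for glucocorticoid receptors, enzymes, chaperones and coactivators, 0 differed 2-fold in any comparison, and their median for serum-free minus serum was -0.04. The largest difference there was in H6pd, which supplies cofactor to the HSD11B1 enzyme, at -0.38. The chaperone genes Ptges3, Hsp90aa1 and Fkbp4 stood at -0.23, -0.16 and -0.16. Over all genes at or above the floor 1.58% to 1.86% differed 2-fold per comparison. A count of 0 in this or another list as short is near that share.

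Thra, a thyroid hormone receptor gene, was at 10.51 with retinoic acid, 10.38 in serum-free medium and 10.18 in serum. Thrb, the other receptor gene, was under the floor at 5.08 on every array. So were the deiodinase genes Dio1, Dio2 and Dio3, whose enzymes activate or inactivate thyroid hormone, at 4.17, 4.67 and 5.01. The list of 14 receptor, deiodinase and transporter genes had 0 genes past 2-fold in any comparison. Slc7a5, which encodes an amino acid transporter that also carries thyroid hormone, was the farthest in serum-free minus serum at -0.67. Slc7a8 stood at 0.37, and Crym, which encodes a thyroid hormone binding protein, at 0.36.

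Markers of the glands that make these hormones stayed under the floor. Of 6 adrenal cortex genes, among them the steroidogenic genes Star, Cyp11a1 and Cyp21a1, 0 reached the floor on any array, and the same held for the thyroid genes Tg and Tshr. Kidney markers were present, with 7 of 7 nephron progenitor, 7 of 7 ureteric bud and 5 of 5 stroma genes at or above the floor on all arrays. Of 5 retinoic acid response genes, 4 reached the floor and were at least 2-fold higher in retinoic acid than in serum-free medium. Cyp26a1 stood at 1.15 with both values under the floor, and the median of the 5 was 2.95.

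Other targets of the same hormones were described from lists, without the 8 genes. Of 26 measured glucocorticoid targets, 16 were at or above the floor in serum-free minus serum. Of those 16, 0 were past 2-fold, beside 1.58% of all genes. Of the 26 differences 11 were above 0, 8 were below and 7 were exact ties. The median was 0 (0.06 over the 16 genes at or above the floor). Among the 16, Angptl4, which encodes an inhibitor of lipoprotein lipase, came nearest to 2-fold. It was at 8.58 with retinoic acid, 8.64 in serum-free medium and 7.65 in serum, a difference of 0.99 for serum-free minus serum. Pdk4, which encodes a kinase that shuts off pyruvate oxidation in fasting, stood at 0.69, and the repressor gene Bcl6 at 0.58 with both values under the floor. Lcn2 (lipocalin 2) stood at -1.07, past 2-fold in size, but also with both values under the floor. With retinoic acid 1 of the 26 was at least 2-fold higher than in serum-free medium, the transglutaminase gene Tgm2 at 1.12, and 0 were lower. Against serum 1 was lower, the annexin gene Anxa1 at -1.39, and 0 were higher.

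Of 16 measured thyroid hormone targets, 1 was higher and 1 lower by 2-fold or more without serum, beside 0.876% and 0.699% of all genes. At or above the floor were 8 of the 16. Cpt1a, which encodes the gatekeeper of mitochondrial fatty acid oxidation, was at 10.18 with retinoic acid, 10.36 in serum-free medium and 9.24 in serum. Its difference for serum-free minus serum was 1.13. Me1, which encodes malic enzyme, was at 8.24, 8.34 and 9.71 on the same arrays, and its difference was -1.38. With retinoic acid both stayed near their serum-free values, at -0.18 for Cpt1a and -0.10 for Me1, beside 1.31 for Klf9. Hr (hairless), a thyroid hormone target in brain, was under the floor at 5.84 on every array.

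**Figure D3:**
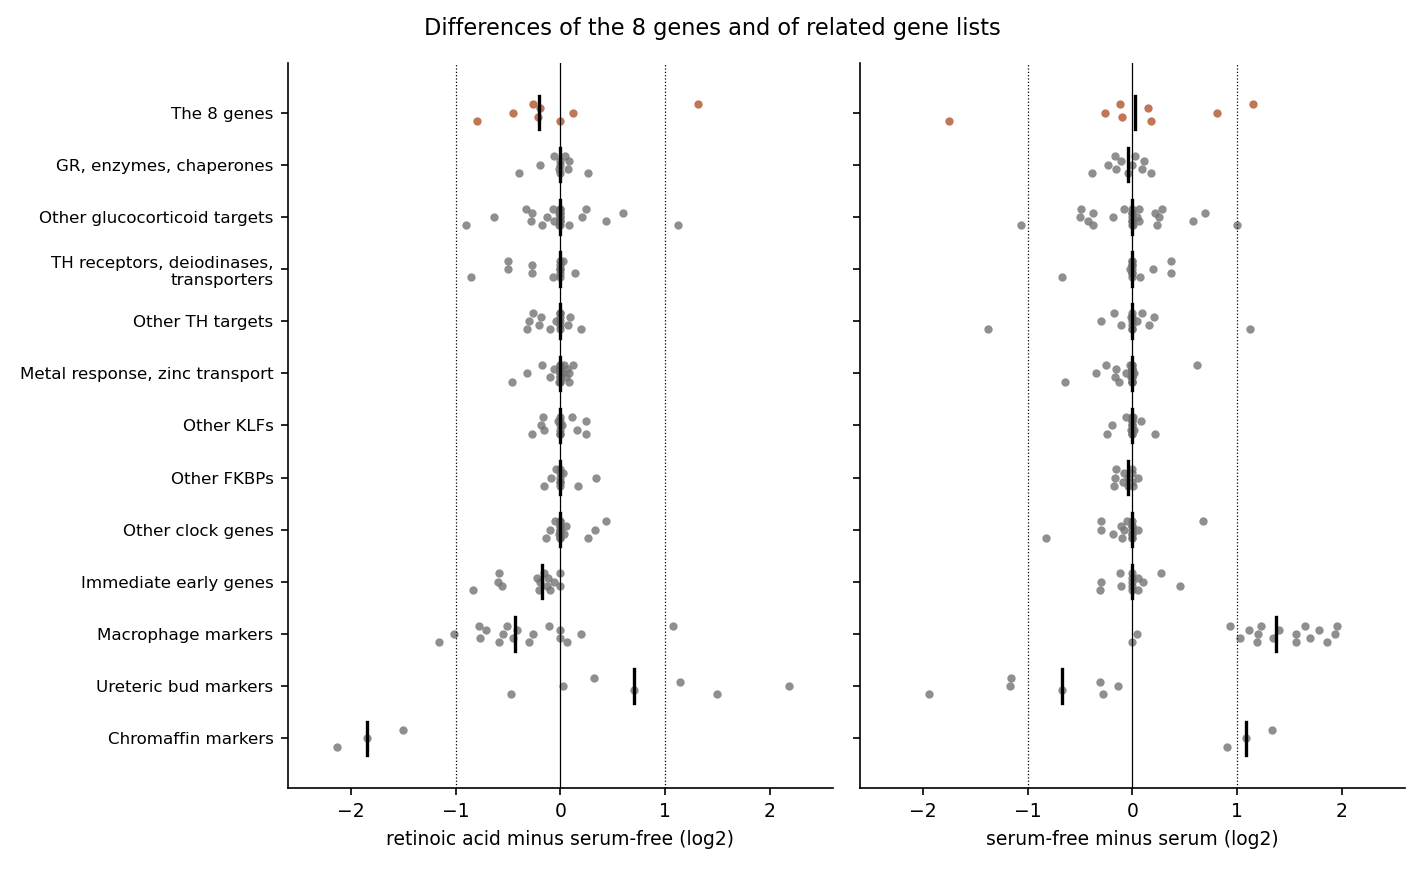
Differences in log2 intensity (x axis) for retinoic acid minus serum-free (left) and serum-free minus serum (right), 1 point per measured gene, with a black bar at each list's median and dotted lines at 2-fold; GR is the glucocorticoid receptor and TH thyroid hormone. The 8 genes are in orange at the top, and the hormone lists, which hold exact ties, have medians at or near 0. The macrophage, ureteric bud and chromaffin marker lists lie off centre in both panels.

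No other gene of the Klf9 family differed 2-fold. The 16 other Krüppel-like factor genes, 12 of them at or above the floor, gave 0 past that size in any comparison. Over all genes the share was 1.58% to 1.86%. For serum-free minus serum the 16 ranged from -0.24 (Klf15, another glucocorticoid target, under the floor) to 0.21 (Klf11). Klf13, which encodes a close relative of KLF9, was at 7.58 on every array. The other 3 TSC22 family genes ranged only from -0.03 to 0 without serum, and the 12 other FK506 binding protein genes from -0.18 (Fkbp9) to 0.06 (Fkbp15).

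The clock genes measured beside Per1 gave 0 of 18 past 2-fold in any comparison, beside 1.58% to 1.86% of all genes. At or above the floor were 13 or 14 of the 18, depending on the comparison. Per2, also a glucocorticoid target, was at 7.38 with retinoic acid, 6.95 in serum-free medium and 7.04 in serum, and Dbp, a clock output gene, at 8.24, 7.90 and 8.20. Ciart, a clock repressor gene, stood at -0.83 for serum-free minus serum, and Bhlhe41 stood at 0.68, and for each both values lay under the floor. Nr1d2, another clock repressor gene, stood at -0.30.

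Among the 11 other genes of SGK kinases and sodium transport, 1 was at least 2-fold lower without serum, beside 0.699% of all genes. It was Scnn1b, a subunit of the epithelial sodium channel, at 8.08 with retinoic acid, 7.16 in serum-free medium and 8.29 in serum. Like Klf9 it was low on the serum-free array alone, with differences of -1.13 and 0.92 for the successive steps. Scnn1g, another channel subunit, followed the same order at 8.49, 7.88 and 8.38, and Scnn1a stayed under the floor at 5.97. Sgk3 stood at -0.21 and Atp1b1, a sodium pump subunit gene, at -0.53.

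The metal response was read from 23 genes other than Mt1 and Mt2, and 0 of them differed 2-fold in any comparison, with a median of 0 in each. At or above the floor were 19 of the 23, and over all genes 1.58% to 1.86% differed 2-fold. Exact ties made up 12 of the 23 differences for serum-free minus serum and 10 in each of the other comparisons. Slc30a1, which encodes a zinc exporter induced through MTF1 like the metallothioneins, was at 7.59 with retinoic acid, 7.60 in serum-free medium and 7.59 in serum. Mtf1 was at 8.01 and Mt3 at 7.57 on every array. Hmox1, the heme oxygenase gene, followed the order of Mt1 at 10.00 with retinoic acid, 10.45 in serum-free medium and 9.84 in serum. Gclc and Gclm, which make glutathione, went the other way at -0.65 and -0.35 without serum.

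Immediate early genes, which serum itself can induce, gave 0 of 14 past 2-fold in serum-free minus serum, beside 1.58% of all genes. Their median there was 0. With retinoic acid 12 of the 14 differences from serum-free medium were below 0 and 0 above, with a median of -0.18, and 0 reached 2-fold. Against serum, Nr4a1 was at least 2-fold lower at -1.13.

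The genes whose values over the 3 arrays lay nearest to Klf9 were Papss2, Lhx1, Arg2, Wnt4 and Vsnl1. They were chosen from 9986 genes by the distance between their pairs of successive differences, which ran from 0.14 for Papss2 to 0.39 for Vsnl1. Lhx1 encodes a transcription factor of the ureteric bud and nascent nephron and Wnt4 the signal that turns nephron progenitors into epithelium. Papss2 makes the sulfate donor for sulfation, Arg2 is a mitochondrial arginase and Vsnl1 a neuronal calcium sensor. Lhx1 was at 8.07 with retinoic acid, 6.79 in serum-free medium and 8.71 in serum, and Wnt4 at 8.92, 7.49 and 8.92.

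The genes nearest to Mt1 were Slc9a9, Lgals9, Ctss, Apobec1 and Lyz2, at distances from 0.04 to 0.10. Ctss (cathepsin S) and Lyz2 (lysozyme) belong to the macrophage marker list used here. Lgals9 encodes galectin 9, Slc9a9 an endosomal ion exchanger and Apobec1 a cytidine deaminase that edits RNA. Lyz2 was at 9.83 with retinoic acid, 10.38 in serum-free medium and 9.27 in serum, and Lgals9 at 8.61, 9.03 and 7.91. Likeness over 3 arrays rests on 2 differences, so many genes can share a pattern.

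**Figure D4:**
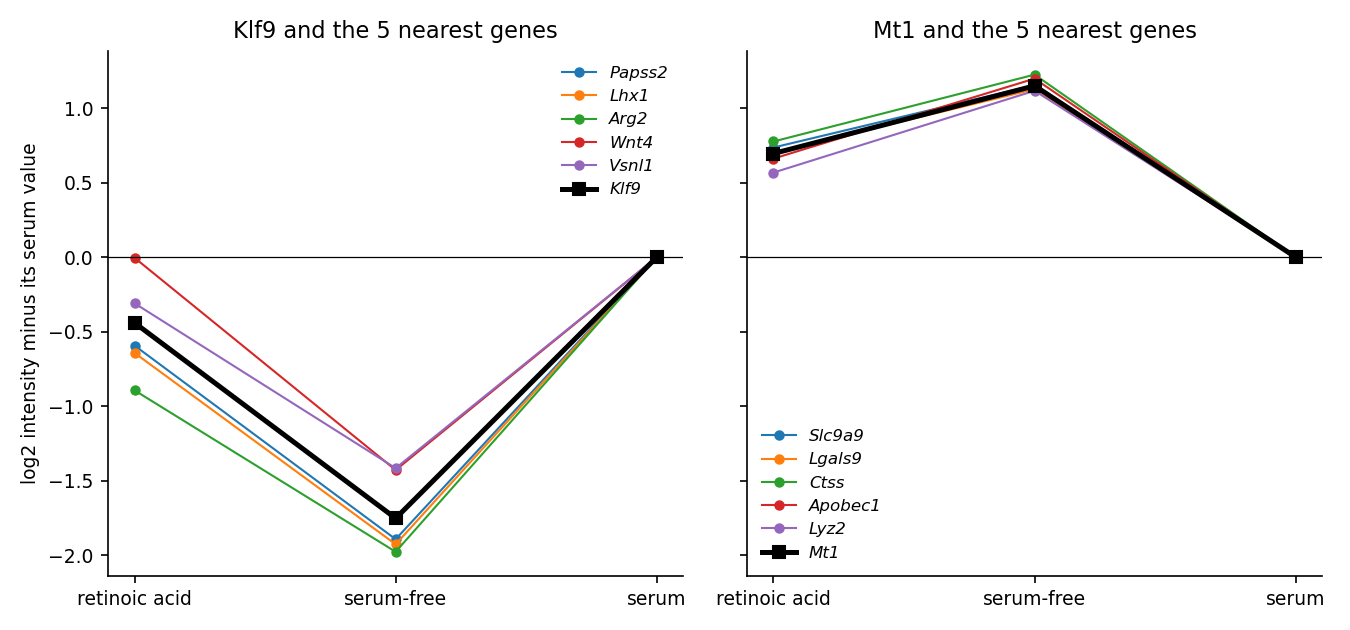
Log2 intensity minus the same gene's serum value (y axis) on the retinoic acid, serum-free and serum arrays (x axis) for Klf9 (left) and Mt1 (right), each in black with its 5 nearest genes in colour. The serum-free values lie between -1.98 and -1.42 for the neighbours of Klf9 and between 1.12 and 1.22 for those of Mt1.

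Cell type markers also differed between the arrays, and in a bulk sample more cells of a type and more RNA per cell cannot be told apart. Among the 18 macrophage markers, 15 were higher by 2-fold or more in serum-free medium than in serum, with a median of 1.37. For retinoic acid minus serum-free 13 of the 18 were below 0, 3 above and 2 exact ties, with a median of -0.43. Pf4 was at least 2-fold higher in that step, at 1.07, and Cd68 and Mrc1 were at least 2-fold lower. The summed intensity of the 18 markers was 10549 with retinoic acid, 14928 in serum-free medium and 5133 in serum, the order of Mt1. Of these genes 16, 15 and 12 were at or above the floor on those arrays, and Cd14 was under it at 5.27 on all of them. Chromaffin cell genes had summed intensities of 407.1, 1524 and 679.6 in the same order of media, with the serum-free array alone high as for Mt2. Of 5 endothelial genes 5 were highest in serum-free medium and lowest in serum, again the order of Mt1, with a median of 0.53 for serum-free minus serum and -0.32 for retinoic acid minus serum-free. None of these passed 2-fold, and their summed intensity was 4599 with retinoic acid, 5782 in serum-free medium and 3595 in serum. The part of these cell types in the metallothionein values was not tested.

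Most ureteric bud markers shared the direction of Klf9. Of 7 genes 7 had differences below 0 without serum, 3 of them past 2-fold, and 6 had differences above 0 for retinoic acid minus serum-free, 3 of them past 2-fold. Gata3 was the exception, lowest with retinoic acid at -0.48 from serum-free medium, and Cdh1 stood at only 0.03 there. Their summed intensity was 9834 with retinoic acid, 4989 in serum-free medium and 9277 in serum. Calb1 made up much of that sum, which without it was 5990 with retinoic acid, 4141 in serum-free medium and 6020 in serum. Nephron progenitor markers had medians of 0.23 for serum-free minus serum and -0.50 for retinoic acid minus serum-free. In the second step 5 of the 7 were below 0 and 1 above, with Cited1 at -2.13. Stroma markers had medians of 0 and 0.08 for those steps. Among them Tbx18 stood at -0.68 and 1.22, and Pdgfrb at 0.09 and -0.68.

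Smooth muscle genes had the largest median of the cell type lists without serum, at -1.91, with 4 of 5 genes past 2-fold. Their summed intensity was 1100 with retinoic acid, 2744 in serum-free medium and 7807 in serum. Per1 had the same order of arrays with far smaller differences, whereas Klf9 and the metallothioneins did not.

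The Y-linked genes Eif2s3y, Kdm5d and Uty were also lowest on the serum-free array, at 7.21 to 7.46, against 8.38 to 8.64 with retinoic acid and 7.74 to 8.38 in serum, and Xist was highest there at 11.48. The part of cell makeup or of embryo sex in the Klf9 and Per1 values was not tested. The sex of the embryos and the medium cannot be told apart on these arrays.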

How the data were processed

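The authors deposited linear intensities per probe set (3.84 to 17250) for 3 arrays, 1 per medium. Per the submitters' processing notes they came from Affymetrix Expression Console 1.1 and RMA, which subtracts background, equalises the arrays' distributions and summarises probes by median polish. Neither its settings nor a genome build is stated in the labels. The median intensity was 84.7 (retinoic acid), 85.5 (serum-free) and 81.5 (serum).

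Log2 was taken with no pseudocount. Of 35556 probe sets, 21789 carried exactly 1 symbol, and the one with the highest mean stood for its gene. All 8 genes had 1 probe set each. The code that applies the 2-fold rule was tested on simulated data, which checks the code and not the error of the arrays. Named genes were the 8 genes, list genes past 2-fold or among the 4 farthest in serum-free minus serum, and the 5 nearest patterns. Other list genes, such as Nr3c1, Thrb, Klf13, Mtf1 and Per2, were added for their role after their values were seen. The genes and lists were chosen with earlier results of these data known, and listed genes with no probe set of their own were not analysed here. Python 3.11.15, R 4.3.3 and limma 3.58.1 were used. Alternatives changed the low-value offset, scaling, probe set rule, floor and fold.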

Additional observations from a re-analysis of the deposited data

How the results depend on the processing

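The differences of the 8 genes moved by less than the disagreement between probe sets in 72 of 72 recomputed values, over an offset of 32 added to the intensities, cyclic loess and median centring. Averaging the probe sets of a gene could not alter them, since each has 1. Median centring moves all genes of a comparison by the same small amount, and RMA had already equalised the arrays. The count of 72 is therefore a weak check. Klf9 ranged from -1.75 to -1.54 for serum-free minus serum and from 1.14 to 1.32 for retinoic acid minus serum-free. Mt1 ranged from 1.07 to 1.21 and Mt2 from 0.80 to 0.87 for serum-free minus serum. Per1 for retinoic acid minus serum stood at -0.30, -0.31 and -0.28 with the offset, loess and centring. It thus no longer exceeded the disagreement of 0.325 between probe sets. At 2-fold, Klf9 and Mt1 without serum and Klf9 with retinoic acid were called under each of these 3 settings and with no floor or a floor 1 unit higher. At 1.5-fold, 3 of the 8 genes (Klf9, Mt1 and Mt2) were called for serum-free minus serum, beside 4.08% of all genes. For retinoic acid minus serum-free 2 were called (Klf9 and Mt2), beside 4.35%, and for retinoic acid minus serum 1 (Mt1), beside 5.3%. All genes called then numbered 539 for retinoic acid minus serum, 440 for retinoic acid minus serum-free and 414 for serum-free minus serum, in place of 189, 168 and 160, because the threshold is lower.

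No paired analysis was possible because each medium has 1 array. For the same reason leaving out an array was not run, and no difference has an error. Klf9 in serum-free medium, Sgk1 and Zbtb16 lay near or under the floor.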
